A study of Drosophila melanogaster with 4 samples.

Results

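The 8 genes described here encode receptors for serotonin and octopamine that have been linked to contraction of the ovary and to ovulation in Drosophila melanogaster. They were taken by gene symbol from a table of 17475 genes, and all 8 were found. The members were the serotonin receptors 5-HT2A, 5-HT1A, 5-HT1B and 5-HT7 and the octopamine receptors Oamb, Octbeta1R, Octbeta2R and Octbeta3R. They were chosen by function, with their FPKM in the 4 libraries and hence the contrast between genotypes already known, so that contrast is given for them as a description, without a p-value.

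Serotonin and octopamine are monoamines made from tryptophan and tyrosine, and octopamine is the invertebrate counterpart of noradrenaline. Their receptors pass through the membrane and act on G proteins, which raise or lower cyclic AMP or release calcium from internal stores. In the fly, octopamine from neurons that innervate the ovary and oviduct acts on the muscle sheath, the oviduct epithelium and the follicle cells of mature egg chambers, and it drives contraction, relaxation and rupture of the follicle at ovulation. A muscle sheath surrounds the ovary and each of its egg-producing tubes.

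RNA of ovaries from 7-day-old adult females was sequenced in 4 libraries, 2 per genotype. The controls were w1118 flies, labelled wild type, and the mutants carried wh7, an allele of wuho, in the same w1118 background. Its product is a WD-repeat protein of the complex that methylates tRNA. The values are FPKM, reads scaled to transcript length and to library size, as the authors computed them, and the contrast of mutant with control ovary is the one comparison of the study. The labels do not say whether oviduct or other tissue stayed attached to the ovaries. They also leave unsaid whether each library had its own flies, and p-values therefore measure only the spread between these libraries, which may be technical.

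The description fields of the samples name another experiment, RNA interference against tkv, so the groups follow the source names. In the libraries named wh7, wuho was at 0.832 and 0.646 FPKM, against 24.7 and 25.4 FPKM in the controls. FPKM summed to between 682413 and 757801 per library. All 10 germline markers checked were present, with summed levels of 2263 to 2284 FPKM in the controls and 1879 to 2059 FPKM in wh7, as were all 12 follicle cell markers. Of 11 tested follicle cell markers limma called 5 higher (Fas3, ct, eya, tj and br) and 1 lower (cad), where 21.2% of all tested genes were called higher and 18.4% lower. Muscle markers stood far apart between genotypes, at 468 and 505 FPKM summed over 19 genes in the controls, against 1992 and 3175 FPKM in wh7. Fewer cells of a type and less RNA per cell cannot be told apart in such bulk samples.

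Octopamine receptors made up nearly all of the receptor signal in control ovaries, and 3 of the 8 genes carried it in wh7. In the controls Oamb averaged 4.60 FPKM, Octbeta2R 1.49, 5-HT2A 0.131, Octbeta3R 0.117, 5-HT7 0.0431, 5-HT1A 0.0141 and Octbeta1R 0.0111 FPKM, and 5-HT1B was listed at 0. Neighbours in this order had separate library values except 5-HT2A and Octbeta3R, 5-HT1A and Octbeta1R, and Octbeta1R and 5-HT1B. In wh7 the order was Oamb at 3.81, Octbeta2R at 3.43, 5-HT2A at 2.51, 5-HT7 at 0.115, 5-HT1A at 0.0459, Octbeta3R at 0.0447, Octbeta1R at 0.0438 and 5-HT1B at 0.0405 FPKM. There Oamb and Octbeta2R overlapped, as did neighbours among the last 4 genes.

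**Figure D1:**
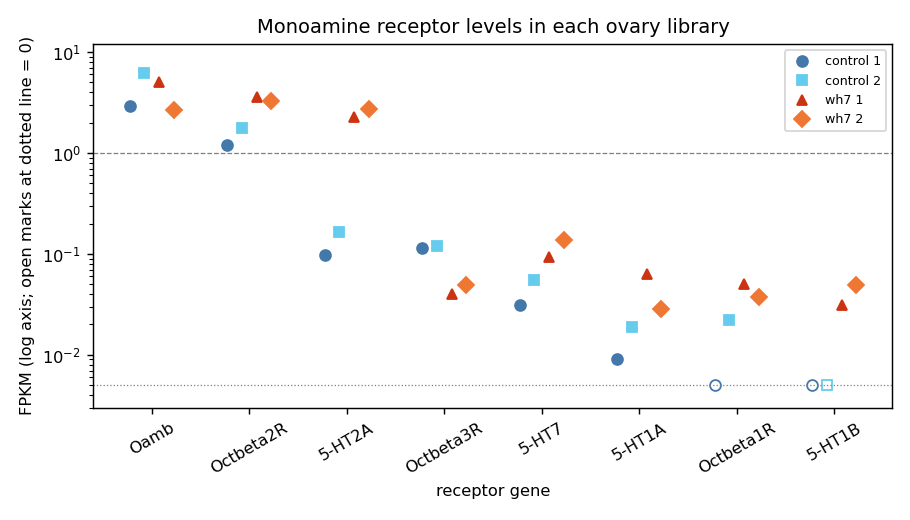
FPKM as deposited, on a log axis, of each receptor gene in each of the 4 ovary libraries; the dashed line marks 1 FPKM, and open marks on the dotted line stand for 0. Oamb and Octbeta2R exceeded 1 FPKM in every library and 5-HT2A did so in both wh7 libraries, while the other 5 genes stayed under 0.2 FPKM throughout.

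The depth behind these values differed widely between the genes. Between libraries, 77.4% to 78.4% of the compared genes under 0.1 FPKM differed by a ratio of whole read numbers, within 0.001 on the log2 scale, and 1 FPKM in a transcript of 1 kb stood for about 19.3 to 20.2 reads. From the annotated transcript lengths, Oamb rested on about 177 to 496 reads per library and Octbeta2R on about 55 to 485, the range covering the shortest and longest transcripts. The 5-HT2A value rested on about 6 to 14 reads in the controls and 146 to 233 in wh7. For 5-HT7, Octbeta3R, 5-HT1A, Octbeta1R and 5-HT1B the estimate was at most 14 reads in any library, so that only large differences were detectable in them at this depth.

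Oamb, the alpha-type octopamine receptor that raises calcium and is needed in mature follicle cells and oviduct for ovulation, had the highest level of the set. It was at 2.94 and 6.26 FPKM in control 1 and control 2 and at 4.99 and 2.64 FPKM in wh7 1 and wh7 2. The groups overlapped fully, since the lowest and the second highest values both came from wh7, and the libraries of 1 genotype differed by more than the genotype means. The ratio of wh7 to control means was 0.829. It was 1.30 without control 2 and 1.09 without wh7 2, against 0.609 without control 1 and 0.573 without wh7 1, so the direction rested on single libraries.

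The swing of Oamb between libraries of the same genotype had a counterpart in 4 late chorion genes. The chorion genes Cp15, Cp16, Cp18 and Cp19 encode eggshell proteins made late in follicle cells and were picked for this comparison after the values were seen. Summed, they were at 1063 FPKM in control 1, 9436 FPKM in control 2, 4103 FPKM in wh7 1 and 71.5 FPKM in wh7 2. Oamb and the chorion genes thus ranked the libraries alike, with control 2 highest, then wh7 1, then control 1 and wh7 2 lowest. The eggshell gene Vm32E had the same order, but other genes of follicle cells and ovulation did not. Nox was lowest in control 1, at 6.37 FPKM, and at 14.4 FPKM in wh7 2. The gene sim was lowest in control 1, at 8.91 FPKM, and highest in wh7 2, at 42.7 FPKM. The chorion genes spanned a far wider range than Oamb, and their part in the Oamb values was not tested.

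**Figure D2:**
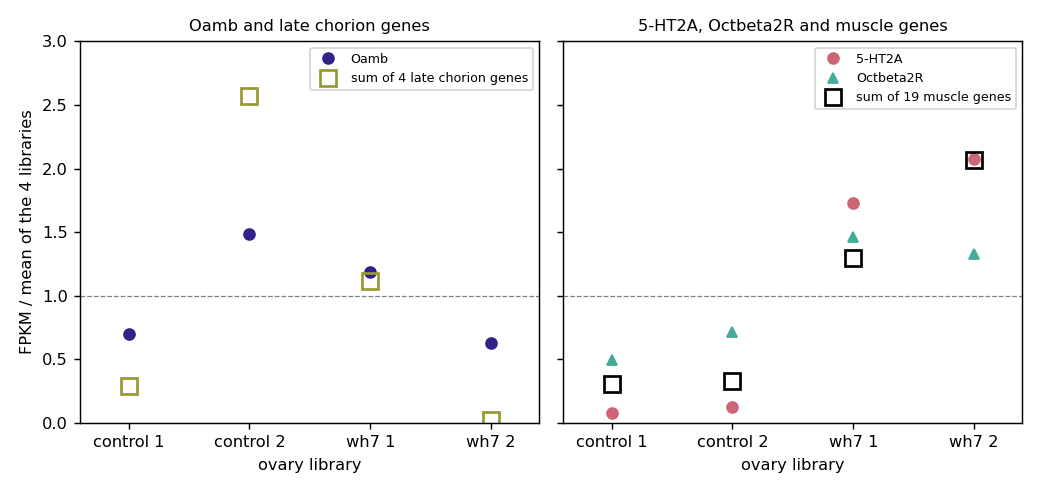
Level in each library divided by the mean of the 4 libraries, for Oamb and the sum of 4 late chorion genes (left) and for 5-HT2A, Octbeta2R and the sum of 19 muscle genes (right). Oamb and the chorion genes were highest in control 2 and lowest in wh7 2, whereas 5-HT2A, Octbeta2R and the muscle genes were higher in both wh7 libraries than in both controls as deposited. Hemocyte, tracheal and fat body markers, not drawn, were mostly higher in wh7 too.

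Octbeta2R, a receptor that raises cyclic AMP and takes part in oviduct function and ovulation, was higher in wh7 as deposited. It was at 1.21 and 1.77 FPKM in control libraries, against 3.60 and 3.26 FPKM in wh7 libraries. The groups did not overlap, and the lowest wh7 value was well above the highest control value. The means of 1.49 ± 0.393 and 3.43 ± 0.239 FPKM (SD, n = 2) gave a ratio of 2.31, which ranged from 1.94 to 2.84 when any 1 library was left out. On the log2(FPKM + 1) scale, which understates the change of low genes, the difference was 0.84, and it turned to -0.25 after quantile normalization, which forces the libraries to 1 distribution.

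Ranks gave another view of the same genes. Among 13834 protein-coding genes, Octbeta2R lay at percentile 48.7 and 49.0 in the controls and at 48.1 and 47.0 in wh7. Its level in FPKM was higher in wh7, and its place among the genes was not. For 5-HT2A the percentile went from 37.9 and 38.9 to 45.9 and 46.0, so that it differed in both views. Oamb lay at 51.5 and 53.5 in the controls and at 49.8 and 45.8 in wh7. The rank of 5-HT7 was lower in wh7 although its FPKM was higher, from 31.9 and 33.2 to 25.5 and 27.4, and Octbeta3R went from 38.7 and 37.4 to 19.9 and 20.9. A percentile depends on how many other genes lie below, and fewer genes were at 0 in wh7. Of all 17475 genes, 6735 and 6555 were at 0 in the controls, against 4673 and 4724 in wh7. A low gene can thus lose rank at an unchanged level, and the size of this effect was not tested.

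Octbeta3R, which in the fly is known for driving ecdysone synthesis in the prothoracic gland, was the one member lower in both wh7 libraries. It was at 0.115 and 0.119 FPKM in control libraries, against 0.0399 and 0.0495 FPKM in wh7 libraries. The control mean of 0.117 ± 0.00279 FPKM was 2.61 times the wh7 mean of 0.0447 ± 0.00681 FPKM (SD, n = 2), and 2.36 to 2.93 times when 1 library was left out. These values rest on an estimated 8 to 14 reads in each control and 3 to 6 in each wh7 library. Octbeta1R, a further cyclic AMP-linked receptor known from the larval neuromuscular junction, was listed at 0 in control 1 and was at 0.0222 FPKM in control 2, 0.0499 FPKM in wh7 1 and 0.0377 FPKM in wh7 2. This amounts to an estimated 5 reads or fewer in each library.

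5-HT2A, the fly counterpart of the mammalian serotonin receptors that release calcium through Gq, showed the widest gap. It was at 0.0978 and 0.164 FPKM in control libraries, against 2.28 and 2.74 FPKM in wh7 libraries. All wh7 values lay more than 10 times above the control values. The means were 0.131 ± 0.0468 and 2.51 ± 0.326 FPKM (SD, n = 2), a ratio of 19.2 that ranged from 15.3 to 25.6 when any 1 library was left out. On the log2(FPKM + 1) scale the difference was 1.63, and it was 0.56 after quantile normalization. In the controls the gene stayed under 1 FPKM, so it passed the filter of the test described below only through its wh7 libraries.

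Muscle markers, like those of other cell types given below, moved in the same direction. The ratio of 5-HT2A lay within the range of tested muscle, hemocyte, fat body and tracheal markers. It lay above that of tested neural and follicle cell markers. Of 18 tested muscle markers 16 rose and 0 fell at a limma adjusted p under 0.05, where 21.2% of all tested genes rose. The muscle ratios had a median of 15.2 and a range of 1.29 to 23.3. Hemocyte ratios ran from 1.25 to 44.5 (median 18.2) and fat body ratios from 3.89 to 91.1 (median 7.11). The tracheal median was 7.15. Neural ratios ran from 1.14 to 9.20 and follicle cell ratios from 0.480 to 6.74. The sum over the 19 listed muscle markers, which the tropomyosin gene Tm1 dominates in the controls, was 5.32 times higher. Neural markers were higher too, with 13 of 15 above both controls in both wh7 libraries and summed levels of 29.1 to 29.6 FPKM in the controls and 41.5 to 48.9 FPKM in wh7. Syx1A held most of that sum, and 4 of 5 tested neural markers were called higher by limma. Among them were the neuronal RNA-binding protein gene elav, at 0.843 and 1.04 FPKM in controls against 6.14 and 6.63 FPKM, and cpx, nrv3 and Appl. None of these 4 reached 1 FPKM in control 1, so they met the filter through wh7. Both cpx and nrv3 were under 1 FPKM in both controls, where 87.0% of tested genes were called higher. A further 10 neural markers were not tested, and nothing is read from that count. Gad1, which marks GABA neurons, was listed at 0 in every library, and the glutamate transporter gene VGlut only reached 0.0171 FPKM in wh7 2. Of 8 tracheal markers all were higher in both wh7 libraries, as were 8 of 9 hemocyte and 7 of 8 fat body markers, where 35.7% of tested genes and 54.8% of protein-coding genes under the filter were. Follicle cell markers were mixed, with 5 of 11 tested called higher, 1 lower and 5 not called. Fas3 was at 12.9 and 20.3 FPKM in controls against 97.1 and 126.7 FPKM, and eya at 6.03 and 9.93 against 33.8 and 41.9 FPKM. The lower marker, cad, was at 192 and 183 FPKM in controls against 127 and 107 FPKM. The most abundant, Vm26Aa, overlapped, at 980 and 3092 FPKM in controls against 2561 and 1217 FPKM. Of the most abundant marker in each list, Syx1A (neural) measured 26.3 and 25.9 FPKM in controls against 26.4 and 33.0 FPKM, and the hemocyte scavenger receptor gene crq 14.3 and 6.71 against 103.8 and 98.0 FPKM. The part of these cell types in the 5-HT2A and Octbeta2R values was not tested.

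The other serotonin receptors were near the limit of detection. 5-HT7, which raises cyclic AMP, was at 0.0309 and 0.0553 FPKM in control libraries, against 0.0930 and 0.137 FPKM in wh7 libraries. The groups did not overlap, and the ratio of means was 2.67. 5-HT1A, which lowers cyclic AMP, was at 0.00917 and 0.0190 FPKM in control libraries, against 0.0635 and 0.0282 FPKM in wh7 libraries. Relative to control 1 the reads behind 5-HT1A stood at 2 times in control 2, 7 times in wh7 1 and 3 times in wh7 2, and the transcript length puts control 1 at about 1 read. Its ratio of 3.26 was 2.0 without wh7 1 and 5.0 without control 2. 5-HT1B, of the same inhibitory class, was listed at 0 in both controls and was at 0.0315 and 0.0495 FPKM in wh7, an estimated 2 to 4 reads. After quantile normalization 5-HT7, 5-HT1A and Octbeta1R turned to lower in wh7 (-0.12, -0.090 and -0.033 on the log2 scale), and 5-HT1B stayed higher.

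The make-up of the summed receptor level therefore differed between genotypes. The 8 genes summed to 4.40 and 8.41 FPKM in the controls and to 11.1 and 8.94 FPKM in wh7, so control 2 and wh7 2 were close. Serotonin receptors held 3.13% and 2.83% of that sum in the controls and 22.1% and 33.0% in wh7, nearly all of it 5-HT2A. Oamb held 66.7% and 74.5% in the controls and 44.8% and 29.5% in wh7. Octbeta2R stood at 0.412 and 0.282 times the Oamb level in the controls and at 0.722 and 1.24 times that level in wh7.

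**Figure D3:**
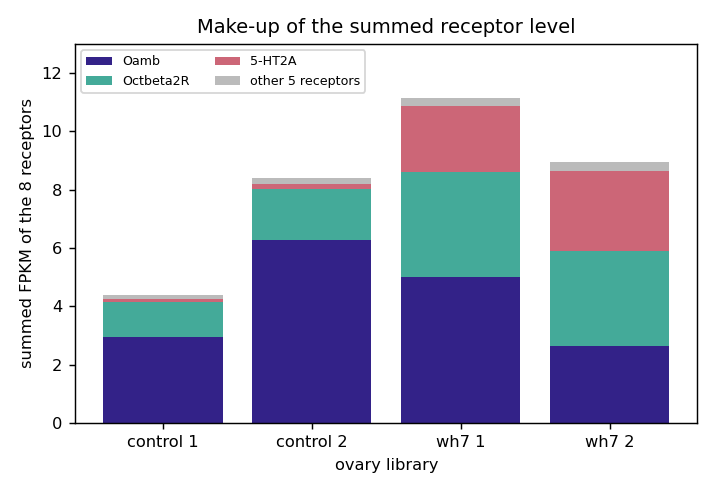
Summed FPKM of the 8 receptors in each library, stacked by gene, with bars starting at 0. 5-HT2A is a thin band in both controls and holds 20.4% and 30.6% of the sum in wh7 1 and wh7 2, while the Oamb share is lowest in wh7 2.

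Across the set, 6 members were higher in both wh7 libraries than in both controls, 1 was lower and 1 overlapped. Among all tested genes 35.7% were higher and 41.3% lower in that sense. Only 3 members, 5-HT2A, Octbeta2R and Oamb, passed a filter of at least 1 FPKM in at least 2 libraries, and limma (log2(FPKM + 1), Benjamini-Hochberg over 8580 genes) called 2 of these 3, 5-HT2A and Octbeta2R, where 39.7% of all tested genes were called. Among tested genes under 1 FPKM in both controls, as 5-HT2A was, 87.0% were called higher. Without control 1, wh7 1 or wh7 2, and after quantile normalization, 0 members were called, and without control 2, or with no filter, only 5-HT2A was. Leaving out either wh7 library also took 5-HT2A out of the test. Since the contrast was known when the members were chosen, nothing is read from these counts. Of the 5 members under the filter, 4 were higher in both wh7 libraries, against 54.8% of protein-coding genes under the filter, and 1 was lower, against 1.86%. Drawn from the same libraries, the authors' deposited table marked the same 2 members as significant. It marked 9.50% of all 17475 genes, including those under the filter used here. An exact two-sided permutation test of 2 libraries against 2 cannot go below 0.333 for any single gene.

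The authors' deposited table of gene ontology terms held 5-HT2A or Octbeta2R in 10 of its 318 terms, 5 of them under a Benjamini adjusted p-value of 0.05. These terms describe genes that the authors listed as changed between the genotypes, so both members entered through the same contrast. Nothing is read from the count of terms, and the share of all 318 terms under 0.05 was not computed. In the authors' deposited table, adenylate cyclase-activating G-protein coupled receptor signaling held Octbeta2R among 9 genes, with a fold enrichment of 4.56 (Benjamini 0.0370). Its inhibiting counterpart held 5-HT2A among 8 genes in the authors' deposited table, with a fold enrichment of 4.28, and missed 0.05 (Benjamini 0.0733).

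Some of the members lie near each other in the genome. Of the 8 genes 6 lie on chromosome arm 3R, which holds 24.5% of protein-coding genes in the table, and 5-HT1A and 5-HT1B lie on 2R. Octbeta3R (FBgn0250910, 3R, 12511570 to 12548229, minus strand) and Octbeta2R (FBgn0038063, 3R, 12550625 to 12595725, minus strand) are neighbours 2395 bases apart with 0 annotated genes between them, in BDGP6. In the same libraries Octbeta3R was 2.61 times lower and Octbeta2R 2.31 times higher in wh7 as deposited, though the direction of Octbeta2R turned after quantile normalization. 5-HT1B (FBgn0263116, 2R, 19022325 to 19032642) and 5-HT1A (FBgn0004168, 2R, 19067155 to 19121958) are 34.5 kb apart and on opposite strands.

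5-HT2A (FBgn0087012) lies on the plus strand of 3R at 4612870 to 4633304, Oamb (FBgn0024944) on the minus strand at 20689018 to 20714577, Octbeta1R (FBgn0038980) on the plus strand at 22497215 to 22520078 and 5-HT7 (FBgn0004573) on the minus strand at 30968236 to 31016875. Few annotated genes share bases with the members' exons. In Octbeta2R the microRNA gene mir-284 and other short RNAs on the same strand do, and mir-284 was listed at 0 in all libraries. The Octbeta3R locus holds Hug, the gene for the neuropeptide hugin, on the opposite strand without shared exon bases, and Hug was listed at 0 except for 0.0526 FPKM in wh7 1. The 5-HT1B locus overlaps CG43351 on the opposite strand, which was listed at 0 in both controls and at 1.59 and 5.75 FPKM in wh7, without shared exon bases.

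Other receptors of the same superfamily were low in these ovaries as well. Of 9 further amine receptors, 7 were higher in both wh7 libraries than in both controls and 1 was lower. The 7 are all under the filter, where 54.8% of protein-coding genes were higher in that sense, and only Oct-TyrR, a receptor for tyramine and octopamine, could be tested. It was at 1.32 and 1.22 FPKM in control libraries, against 0.919 and 0.858 FPKM in wh7 libraries, which missed the threshold (limma adjusted p = 0.283; 0.0174 to 0.701 over the alternatives, and called lower only after quantile normalization). By limma 0 of these receptors were called, 0 had an unadjusted p under 0.05 (0.202 for Oct-TyrR), and 3 were called with no filter. Octalpha2R, listed under its older name CG18208 and an inhibitory octopamine receptor, was at 0.251 and 0.327 FPKM in control libraries, against 1.05 and 0.913 FPKM in wh7 libraries. The dopamine receptor genes Dop1R1, Dop1R2, Dop2R and DopEcR stayed under 0.2 FPKM in every library.

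Of 35 receptors for neuropeptides and peptide hormones, 28 stayed under 1 FPKM everywhere, 28 were higher in both wh7 libraries and 2 lower. Of the 32 under the filter 26 were higher and 1 lower, against 54.8% and 1.86% of protein-coding genes under it. Only 3 could be tested, and limma called 2 higher and 1 lower. Both called higher were under 1 FPKM in the controls and so passed the filter only through wh7, and 87.0% of such genes were called higher, so nothing is read from that count. Neither could be tested without wh7 1 or wh7 2 or at a filter of 5 FPKM. TrissinR, the receptor of the peptide trissin, rose 7.72-fold, with means of 0.704 ± 0.00670 and 5.43 ± 1.75 FPKM (SD, n = 2; limma adjusted p = 0.00927; lost without control 1 or under quantile normalization, 0.00820 to 0.0590 over the alternatives). Pdfr, the receptor of pigment-dispersing factor, rose from 0.596 to 2.71 FPKM (limma adjusted p = 0.0157; lost if control 1 or control 2 was left out and under quantile normalization, 0.0101 to 0.771). Dh44-R2, a receptor of a diuretic hormone, fell from 4.25 ± 0.530 to 0.860 ± 0.289 FPKM (limma adjusted p = 0.0106; call lost without control 1, 0.00641 to 0.0821).

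**Figure D4:**
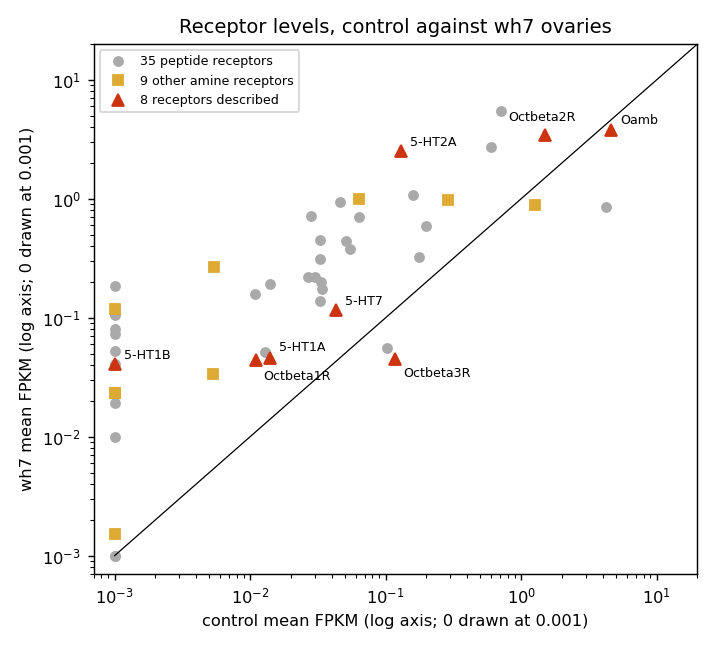
Mean FPKM as deposited in wh7 against controls, both on log axes, for the 8 receptors described, 9 other amine receptors and 35 peptide receptors; genes at 0 are drawn at 0.001 and the line marks equality. Most receptors of each kind lie above the line, and Oamb and Octbeta3R lie below it with Oct-TyrR, Dh44-R2 and sNPF-R.

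Genes that make, move and break down the amines changed in part. Of 8 tested genes in a list of 18, 3 rose and 1 fell, where 21.2% of all tested genes rose and 18.4% fell. The median difference was 0.67 on the log2(FPKM + 1) scale against -0.041 over all tested genes. It was 0.056 without wh7 2, 1.13 without wh7 1, 0.19 after quantile normalization and 0.10 with a filter of 5 FPKM. Tdc1, the tyrosine decarboxylase of non-neuronal tissue that makes tyramine, rose from 1.05 ± 0.254 to 20.1 ± 8.37 FPKM (SD, n = 2), 19.1-fold (limma adjusted p = 0.00592), and was called in each of the 11 alternatives. Dat, which encodes a dopamine N-acetyltransferase that inactivates monoamines, rose from 2.10 ± 0.825 to 10.2 ± 2.34 FPKM (limma adjusted p = 0.0117; called in each of the 11 alternatives).

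Hn, a hydroxylase of phenylalanine, passed the filter only through wh7, and was not testable without wh7 1 or wh7 2 or at a filter of 5 FPKM. Of genes under 1 FPKM in both controls, 87.0% were called higher. It rose from 0.421 to 1.39 FPKM (limma adjusted p = 0.0438; call lost without control 1 or control 2, with the replicate block and after quantile normalization, where its direction turned, 0.0238 to 0.309). Sptr, an enzyme of the pterin cofactor pathway, fell from 38.4 ± 1.80 to 29.4 ± 2.60 FPKM (limma adjusted p = 0.0485; called in 3 of 11 alternatives and lost without control 1, control 2 or wh7 2, 0.0448 to 0.186). Vmat, the transporter that loads amines into vesicles, was picked after its values were seen. It was at 0.643 and 1.84 FPKM in control libraries against 3.98 and 12.9 FPKM in wh7, just missing the threshold (limma adjusted p = 0.0521). Vmat was called with a pseudocount of 0.1 (limma adjusted p = 0.0495) and with the replicate block (0.0181). It was not called without a filter (0.111), without the trend (0.0695), or after quantile (0.234) or median ratio scaling (0.0517).

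The enzymes that are specific to neurons for these amines were too low to test, and they too are named after their values were seen. Tdc2, the neuronal tyrosine decarboxylase, was at 0.147 and 0.239 FPKM in control libraries, against 0.832 and 1.29 FPKM in wh7 libraries. Tbh, which turns tyramine into octopamine, was at 0.0371 and 0.0256 FPKM in control libraries, against 0.612 and 0.646 FPKM in wh7 libraries. Trh, the neuronal tryptophan hydroxylase of serotonin synthesis, was at 0.0223 FPKM and 0 in the controls, against 0.154 and 0.206 FPKM in wh7. The serotonin transporter gene SerT was listed at 0 and at 0.0307 FPKM in the controls and was at 0.0147 and 0.0759 FPKM in wh7, so that its groups overlapped.

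Of 25 tested genes in a list of 27 G protein and second messenger genes downstream of the receptors, 9 rose and 1 fell. Over all tested genes 21.2% were called higher and 18.4% lower. In both directions together the list was near the 39.7% called over all tested genes, and nothing is read from its counts. The median was 0.11 against -0.041 over all tested genes, and 0.053 without wh7 2. The 15 that did not pass included dnc, Pka-C1, Pka-R1, CrebB, Plc21C and CaMKII of the cyclic AMP and calcium branches. Galphas, the G protein subunit that stimulates adenylyl cyclase and through which cyclic AMP-raising receptors act, rose 3.10-fold, with means of 9.12 ± 0.908 and 28.3 ± 4.36 FPKM (SD, n = 2; limma adjusted p = 0.00683; called in each of the 11 alternatives). Ggamma1, a G protein gamma subunit named after its values were seen, rose 1.59-fold (limma adjusted p = 0.00842; called in each of the 11 alternatives). Ac76E, an adenylyl cyclase, rose from 0.557 to 3.34 FPKM (limma adjusted p = 0.0100; lost without control 1 or under quantile normalization, 0.00715 to 0.163).

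Itp-r83A, the inositol trisphosphate receptor that releases calcium, rose 2.06-fold, with means of 7.24 ± 0.586 and 14.9 ± 0.394 FPKM (SD, n = 2; limma adjusted p = 0.0111; call lost without control 1, 0.00863 to 0.0608). Ac76E and RyR were under 1 FPKM in both controls, as were the genes of which 87.0% were called higher, and neither could be tested without wh7 1 or wh7 2 or at a filter of 5 FPKM. RyR, the ryanodine receptor of muscle calcium stores, rose from 0.239 ± 0.0705 to 4.65 ± 3.10 FPKM (limma adjusted p = 0.0231; lost without a filter, without control 1 or control 2 and under quantile normalization, 0.0136 to 0.111). Epac, a cyclic AMP-activated exchange factor and the 1 fallen gene, was at 9.79 and 5.47 FPKM on average (limma adjusted p = 0.0414; called in 6 of 11 alternatives and lost if control 1, control 2 or wh7 2 was left out, 0.0237 to 0.154). Galphaq, the subunit through which 5-HT2A-type receptors act, was at 87.8 and 86.2 FPKM in control libraries, against 95.4 and 93.5 FPKM in wh7 libraries and missed the threshold (limma adjusted p = 0.230). Epac and Galphaq were picked once their values had been seen. Leaving out control 1 gave 2 calls in this list, control 2 gave 5, wh7 1 gave 6 and wh7 2 gave 4.

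Of 11 tested genes with a known role in follicle rupture and maturation, in a list of 12, 4 rose and 1 fell. Both directions together are near the 39.7% called over all tested genes, where 21.2% rose and 18.4% fell. The median of 0.38 was about 0 after quantile normalization and -0.079 if control 1 was left out. Leaving out control 2 gave 0.89, wh7 1 gave 0.14 and wh7 2 gave 0.17. In the same libraries the follicle cell markers Fas3, eya, ct, tj and br were called higher and cad lower. Another 5 (Yp1, Yp2, Yp3, Vm26Aa and Vm32E) were not called. The part of follicle cells in these values was not tested. Mmp2, the metalloproteinase that octopamine signalling through Oamb activates at follicle rupture, was at 2.79 and 5.92 FPKM in control libraries, against 24.8 and 35.5 FPKM in wh7 libraries (limma adjusted p = 0.0100), and the inhibitor gene Timp rose 5.78-fold (limma adjusted p = 0.00667). Both were called in each of the 11 alternatives, whereas Oamb overlapped between groups. peb, a zinc finger factor of follicle cell maturation, rose 2.79-fold (limma adjusted p = 0.0184; call lost without control 1, 0.0124 to 0.0656).

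shd, which makes active ecdysone, was under 1 FPKM in both controls, where 87.0% of tested genes were called higher, and was not testable if either wh7 library was left out or at a filter of 5 FPKM. It rose from 0.498 to 1.64 FPKM (limma adjusted p = 0.0319; call lost without control 1 or control 2, with the replicate block and after quantile normalization, where its direction turned, 0.0152 to 0.327). The fallen gene, usp, encodes the partner of the ecdysone receptor and went from 85.9 to 60.9 FPKM (limma adjusted p = 0.0303; called in 5 of 11 alternatives and lost if control 1, control 2 or wh7 2 was left out, 0.0131 to 0.143). It was named after its values were seen. Nox, the oxidase needed in mature follicle cells for ovulation, was at 6.37 and 17.6 FPKM in control libraries, against 14.2 and 14.4 FPKM in wh7 libraries, so that control 2 exceeded both mutants.

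**Figure D5:**
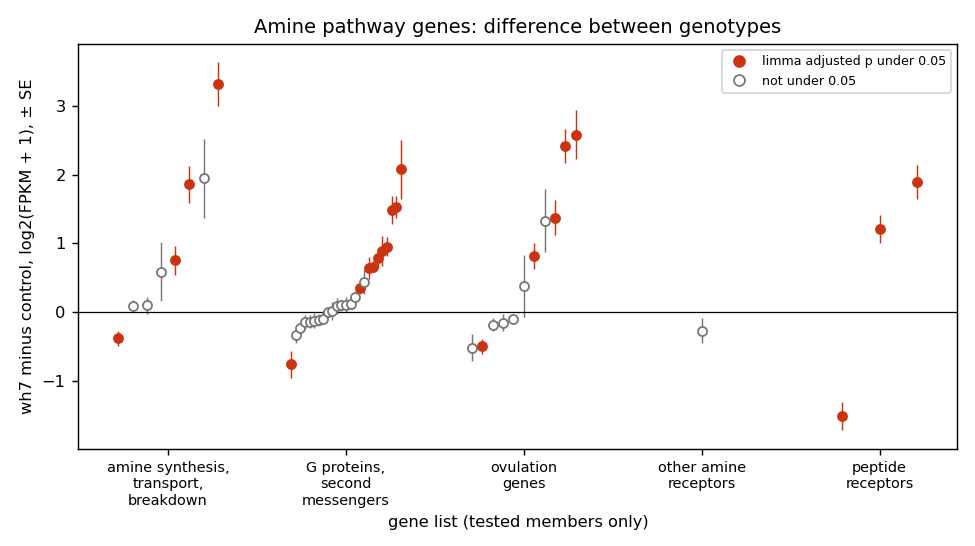
Difference between wh7 and control on the log2(FPKM + 1) scale with its standard error from limma, for tested members of 5 gene lists; filled marks passed an adjusted p of 0.05 with 2 libraries per group. In the G protein list most points lie close to 0, and 9 filled points lie above 0 and 1 below.

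The pattern over libraries was compared with that of 8021 other tested protein-coding genes by the distance between profiles of log2(FPKM + 1), each less its own mean, over 4 libraries. Nearest to Oamb were l(3)72Dr (distance 0.146), the small GTPase gene Rab27 (0.171) and the odorant-binding protein gene Obp99b (0.198). Rab27 was at 3.53 and 6.84 FPKM in control libraries, against 4.98 and 3.19 FPKM in wh7 libraries, close to Oamb in level too. Nearest to Octbeta2R were Rab3-GEF (0.0635), CG3164 (0.0667) and CG40160 (0.0672). CG3164 was at 38.7 and 51.8 FPKM in control libraries, against 84.7 and 79.7 FPKM in wh7 libraries. This scale compresses low genes, so that a small distance need not mean a like ratio. The low gene l(3)72Dr was at 0.330 and 1.81 FPKM in controls against 1.26 and 0.338 FPKM in wh7. Rab3-GEF was at 0.176 and 0.528 FPKM in controls against 1.42 and 1.23 FPKM. With 4 libraries and 8021 genes, nothing is read from such closeness.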

How the data were processed

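Single-end reads of strand-specific libraries were processed with bcl2fastq 2.0 and Bowtie 0.12.2, per the submitters' processing notes; not given in the sources used here is which tool made the values, and with which strand setting. The authors deposited FPKM per library, in which 0.0001 appears to stand for 0 and was set to 0, per the file headers and values. The authors also deposited a ratio and log2 ratio of wh7 to control and a p-value per gene, per the file headers. All per-library columns were mapped to samples by title. Of the gene identifiers 98.3% were found in a BDGP6 annotation, 99.8% of these on the same chromosome.

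No counts are given, so log2(FPKM + 1) values were analysed in R 4.3.3 using limma 3.58.1 and its trend option. Genes entered where 2 or more libraries reached 1 FPKM, with Benjamini-Hochberg adjustment over all tested genes and a threshold of 0.05. The fit was tested on simulated data with a common spread for all genes, unlike these libraries. That test checked the working of the fit, and nothing about the calls is read from it. Groups were taken from the source names. Fold changes are ratios of mean FPKM. Members and gene lists were chosen with earlier results of these data known. Named list genes are up to 4 called genes per list with the largest difference and no overlap, or the 2 of highest level where none was called. Of the listed symbols only FASN1 was not matched. Alternatives were a pseudocount of 0.1, no filter, a filter of 5 FPKM, quantile and median ratio scaling, no trend, a replicate block and leaving out each library. Read estimates scale FPKM by annotated transcript lengths and are approximate. Sequence identity between members was not analysed here.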

Additional observations from a re-analysis of the deposited data

How the results depend on the processing

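Over all genes 3403 calls became 764 to 2363 when 1 library was left out. List calls when 1 library was left out were 2 to 4 (amine synthesis and transport, 4 with all libraries), 2 to 6 (G protein and second messenger, 10), 2 to 5 (ovulation, 5) and 0 to 2 (peptide receptors, 3). Without a filter, 3 other amine receptors, 7 amine synthesis and transport genes and 10 peptide receptors were called. With a filter of 5 FPKM, 6 G protein genes and 0 of 0 tested peptide receptors were called. After quantile normalization, the calls were 1 other amine receptor (lower), 2 amine synthesis and transport genes, 3 ovulation genes and 1 peptide receptor.

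Member differences on the log2 scale kept their direction in all alternatives but these. Quantile normalization turned Octbeta2R to -0.25, 5-HT7 to -0.12, 5-HT1A to -0.090 and Octbeta1R to -0.033, and it left 5-HT2A at 0.56 and Oamb at -1.11. Oamb ranged from -0.64 to 0.25 over libraries left out. A pseudocount of 0.1 gave 3.51 for 5-HT2A and 1.17 for Octbeta2R, as a smaller pseudocount compresses low values less. The cause of the other shifts was not tested.

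The replicate numbers only name libraries. With the number as a replicate block, 3624 genes were called, with 3 amine synthesis, 11 G protein, 5 ovulation and 3 peptide receptor genes and 0 other amine receptors. Deviations of same-numbered libraries were weakly and negatively correlated across genes (r = -0.165 over 8580 genes, which are not independent replicates). The crossed pairing, tried after seeing the data, gave 2729 calls. Depth limits the 5 receptors under 0.2 FPKM.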
